A study of Mus musculus with 24 samples.

Results

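The RNA levels of 10 genes that encode regulators of the integrated stress response were followed in the mouse hippocampus after deletion of *Tsc1*: *Atf4*, *Atf5*, *Ddit3* (which encodes CHOP), *Atf3*, *Cebpb*, *Nupr1*, *Trib3*, *Chac1*, *Sesn2* and *Ddit4*. They are 10 of the 55385 gene identifiers in the count data, found by their symbols in the GENCODE annotation, and all of them had enough counts to be tested in every comparison. The list was drawn up by name, and some of its genes were put on it because they rose strongly on day 8, so day 8 against control is described here without a test. The counts come from sequenced RNA of whole hippocampi, 1 per mouse, of 24 mice that form 6 groups of 4. All mice carried floxed *Tsc1* alleles and received tamoxifen on 4 days. The control group was *Tsc1*f/f-Tg(*Camk2a*-CreERT2-), called *Tsc1-Cre-* here, and was taken on day 8 after the first tamoxifen injection. The other groups were *Tsc1*f/f-Tg(*Camk2a*-CreERT2+), called *Tsc1-Cre+*, taken on day 4, 6, 8 or 13 without a drug, or on day 13 after 10 mg/kg rapamycin daily from day 4 (*Tsc1-Cre+*-Rap 4). Rapamycin is an inhibitor of mTOR complex 1, the kinase complex that the *Tsc1* product holds in check. No *Tsc1-Cre-* group received rapamycin, and no group is described as given vehicle. Rapamycin-treated mice therefore differ from controls in genotype, drug and day of collection, which cannot be told apart. The mice were 16 to 22 weeks old and of both sexes. Cre is driven from *Camk2a* regulatory sequence and acts in excitatory forebrain neurons, whereas the RNA is that of the whole hippocampus, so a change in the number of cells of a type and a change in RNA per cell cannot be told apart.

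In the integrated stress response, kinases that sense lack of amino acids, unfolded protein, viral RNA or lack of heme phosphorylate the translation factor eIF2, which lowers general protein synthesis while the *Atf4* mRNA is translated more efficiently. The transcription factor ATF4, with C/EBP family partners, then switches on genes of amino acid synthesis and transport, and further regulators such as CHOP. In many cell types ATF4 is also raised by mTOR complex 1, in part through the stability and translation of its mRNA.

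The libraries held 28208561 to 126435936 counts (median 55582027). The deepest library was day 13 mouse B and the shallowest was rapamycin mouse A. The level of *Tsc1*, as CPM (counts relative to library totals adjusted by TMM), was 105 ± 3.20 (SD, n = 4) in controls and between 57.4 and 81.7 in the 20 *Tsc1-Cre+* mice, all of which lay below the controls. Markers of excitatory hippocampal neurons were present in every mouse, with a summed level of 10 genes between 3803 and 5358 CPM. Choroid plexus markers, among them *Ttr*, varied from 39.9 to 1704 CPM in sum between mice of all groups. Numbers in the deposited names place control and day 8 mice in shared number series, and what these series mark is not stated. Day 4, day 6, day 13 and rapamycin mice each have number series of their own, where time or treatment and series cannot be told apart.

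The number of regulators that passed the test differed between the comparisons. On day 4, none of them passed the test against control (edgeR's quasi-likelihood test, with limits of 0.05 on the adjusted p and 0.5 on the size of the log2 fold change), where 0.68% of all 25308 tested genes did, and 2 had an adjusted p under 0.05, *Sesn2* and *Ddit4*, which were also the 2 with an unadjusted p under 0.05. DESeq2 called none of the 10 either, but gave *Trib3*, *Atf3* and *Nupr1* no adjusted p. On day 6, 6 of the 10 rose, beside 0.647% of all tested genes called higher. On day 13 all 10 were higher than control, beside 8.4% of all tested genes. Under rapamycin none passed the test against control, where 1.41% of all genes did, although 5 had an unadjusted p under 0.05. DESeq2 called none there, but gave *Trib3* and *Atf3* no adjusted p. The median log2 fold change of the 10 against control was 0.09 on day 4, 0.56 on day 6, 2.48 on day 13 and -0.22 under rapamycin, while that of all genes lay between -0.04 and 0.01. In 7 of the 10 genes all day 6 mice lay above all controls, and in 9 all day 13 mice did, beside 9.85% and 17.1% of all tested genes. These comparisons share the control mice with each other and with the day 8 contrast that entered the choice of the genes.

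A pair of comparisons did not use the controls or the day 8 mice. From day 6 to day 13, 9 of the 10 genes rose, beside 5.33% of all tested genes called higher. The median log2 fold change of the 10 was 1.80. The calls of *Nupr1* and *Cebpb* were each kept in 2 of 8 fits with a mouse left out. Between untreated day 13 mice and rapamycin-treated mice of the same day, 9 of the 10 were lower under rapamycin, beside 11.2% of all tested genes, and the median was -2.56. The ranges did not overlap for 7 of the 10 between day 6 and day 13 (14.0% of all tested genes rose without overlap) and for 8 of the 10 between rapamycin and day 13 (17.7% of all tested genes fell without overlap). *Ddit4* was the gene that passed neither of these tests.

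**Figure D1:**
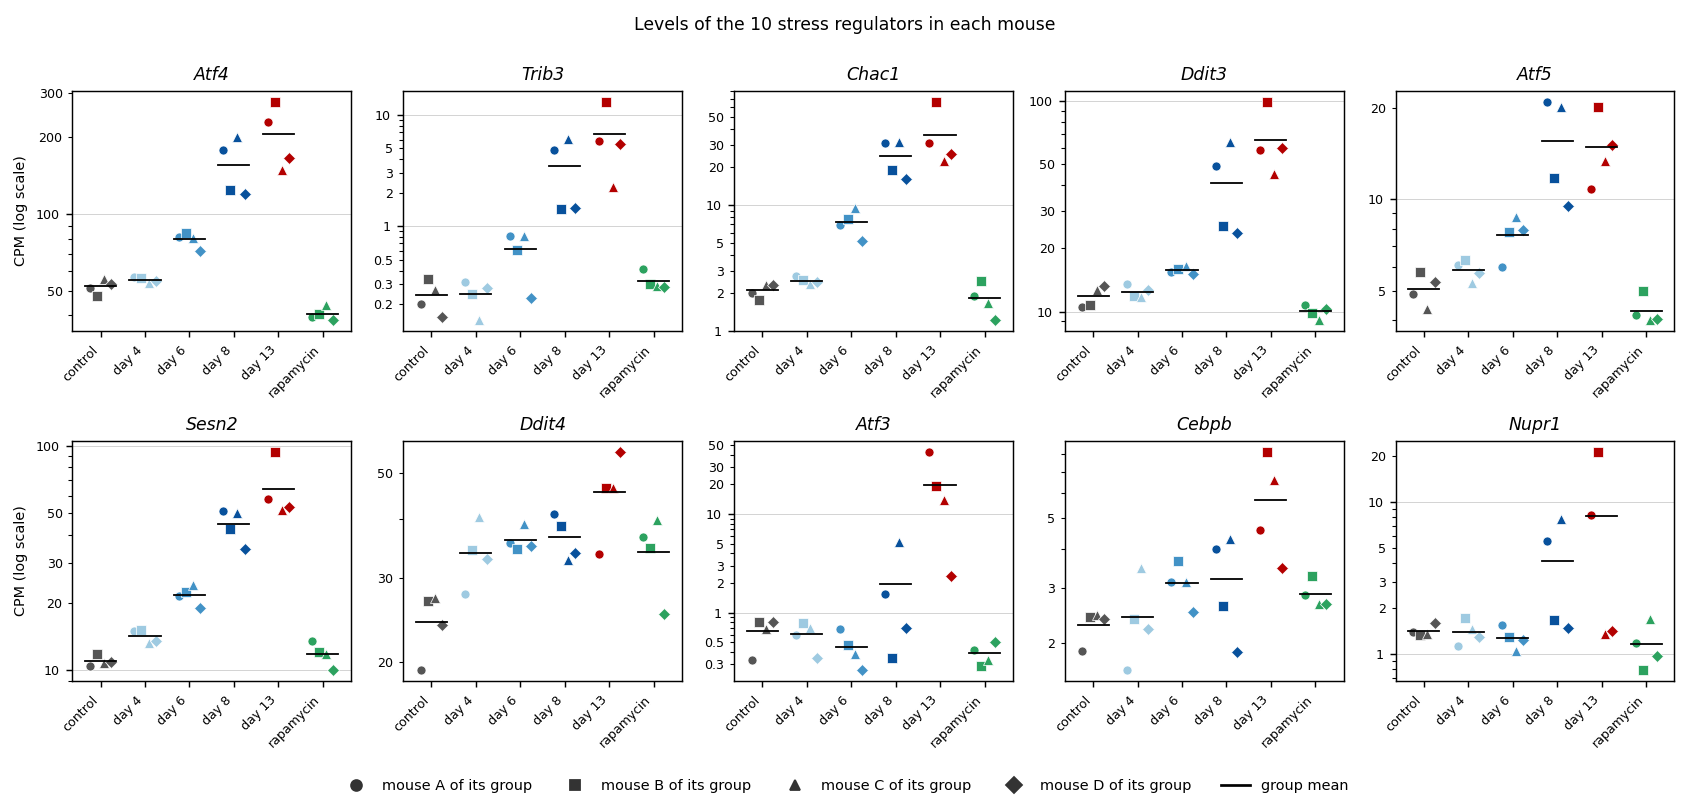
Level of each of the 10 genes (CPM, log scale) in each of the 24 mice, by group, with the group mean as a black line and a marker for each mouse letter. *Atf4*, *Chac1*, *Ddit3* and *Sesn2* step up from day 4 to day 6 and again to day 8 without overlap between neighbouring groups, *Ddit4* moves within 19.3 to 55.3 CPM, *Atf3* is above all controls in 2 mice of day 8 and in all 4 of day 13, and *Nupr1* splits the mice of both days.

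*Atf4* lies on chromosome 15 (GRCm38, plus strand, 80255184 to 80257541) and had the highest level per kilobase of exon of the 10 genes in controls (22.04 CPM per kb). Its level was 51.5, 47.7, 55.5 and 53.2 CPM in control mice A to D, and 56.7, 56.1, 53.5 and 54.8 CPM on day 4. It was 81.4, 84.4, 80.8 and 71.7 CPM on day 6, above every mouse of day 4, and 178, 125, 201 and 119 CPM on day 8. On day 13 the mice stood at 229, 277, 149 and 167 CPM. The day 8 and day 13 ranges overlapped, and each lay above all mice of day 6. *Atf4* had a log2 fold change against control of 0.60 on day 6 (SE 0.0537, adjusted p = 2.45e-05) and 1.96 on day 13 (SE 0.171, adjusted p = 2.56e-04), and from day 6 to day 13 it was 1.35 (SE 0.172, adjusted p = 0.00355).

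Under rapamycin, *Atf4* was the only one of the 10 genes that fell below the controls without overlap. The treated mice had 39.5, 40.4, 44.1 and 38.4 CPM, and the lowest control mouse 47.7 CPM. The log2 fold change was -0.35 (SE 0.0601, adjusted p = 0.00649), which passed the limit on p and not the one on fold change. Among all genes tested in this comparison, 6.2% had every treated mouse below every control mouse. Against untreated day 13 mice the log2 fold change was -2.33 (SE 0.171, adjusted p = 1.10e-04).

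*Atf5* encodes a relative of ATF4 that, like ATF4, is translated preferentially when eIF2 is phosphorylated, and that is known for inducing mitochondrial chaperones. It lies on chromosome 7 (minus strand, 44812256 to 44816658). Its span overlaps those of the oppositely oriented *Nup62* (571 bases) and *Il4i1* (272 bases), so its counts are less certain where the counting did not use strand. Its level was 4.36 to 5.77 CPM in controls, 6.00 to 8.74 CPM on day 6, and 21.0, 11.7, 20.1 and 9.49 CPM in day 8 mice A to D. On day 13 the mice had 10.8, 20.2, 13.4 and 15.2 CPM, and the mean was 15.6 ± 5.82 CPM (SD, n = 4) on day 8 and 14.9 ± 3.97 CPM on day 13. The ranges of these 2 days overlapped fully, and the difference between them was not tested. *Atf5* rose against control by 0.57 on the log2 scale on day 6 (SE 0.120, adjusted p = 0.00853) and 1.53 on day 13 (SE 0.184, adjusted p = 8.87e-04), and that of rapamycin against day 13 was -1.78 (SE 0.185, adjusted p = 3.61e-04). The day 6 call was lost with a correction for GC content (0.49, under the limit on fold change) and in a fit of all 24 mice (adjusted p = 0.1918).

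*Ddit3*, the gene of CHOP, lies on chromosome 10 (plus strand, 127290774 to 127296288). CHOP is a C/EBP family protein known for its part in cell death after prolonged stress of the endoplasmic reticulum. Its level stepped up on day 6, as that of *Atf4* did, and again on day 8. Control mice had 10.5 to 13.2 CPM, day 4 mice 11.7 to 13.5 CPM and day 6 mice 15.4, 15.98, 16.4 and 15.1 CPM. All day 6 mice lay above all control and day 4 mice, but the log2 fold change of 0.40 (SE 0.0794, adjusted p = 0.00609) was under the limit of 0.5. On day 8 the mice had 49.3, 25.5, 64.3 and 23.6 CPM, and on day 13 58.4, 99.6, 45.2 and 59.6 CPM. On day 13 the log2 fold change was 2.45 against control (SE 0.214, adjusted p = 2.56e-04) and 2.04 against day 6 (SE 0.206, adjusted p = 0.00170). Under rapamycin the level was 9.13 to 10.7 CPM, a log2 fold change of -2.70 against day 13 (SE 0.209, adjusted p = 1.33e-04) and -0.24 against control (SE 0.0954, adjusted p = 0.199). A second identifier within the span of *Ddit3*, on the same strand, had no count in any mouse, and the last 68 bases overlap the opposite gene *Mars*.

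*Atf3* encodes a transcription factor that is induced both by ATF4 and by strong neuronal activity or injury, and its level was low until day 13. It lies on chromosome 1 (minus strand, 191170296 to 191218039). The level was 0.330 to 0.804 CPM in controls, 0.262 to 0.686 CPM on day 6 and 0.287 to 0.507 CPM under rapamycin. On day 8 the mice had 1.56, 0.346, 5.20 and 0.695 CPM, so that 2 of 4 lay above the controls. Day 13 mice A to D had 43.0, 19.5, 13.9 and 2.36 CPM, all above the controls and spread over more than an order of magnitude. The log2 fold change was 4.89 against control (SE 0.763, adjusted p = 0.00241), 5.43 against day 6 (SE 0.789, adjusted p = 0.00531) and -5.67 for rapamycin against day 13 (SE 0.786, adjusted p = 0.0011), the last being the largest of the 60 member values tested.

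Immediate early genes, which neuronal activity induces, were compared with *Atf3* mouse by mouse, and their order among the mice differed. The summed level of 12 such genes, among them *Fos*, *Arc* and *Egr1*, was 209 to 270 CPM in controls and 871.9, 560.2, 1428 and 145.2 CPM in day 13 mice A to D. Mouse D, which had the lowest *Atf3* of day 13, was below all controls in this sum, while mouse C had the highest sum and only 13.9 CPM of *Atf3*. In day 13 mouse D *Atf4* stood at 167 CPM, *Chac1* at 25.2 CPM and *Ddit3* at 59.6 CPM, each far above the controls. On day 8 the sum was 201, 295, 194 and 172 CPM in mice A to D, highest in the mouse with the lowest *Atf3* (B) and below all controls in the mouse with the highest (C). Of the 12 genes, 6 were called higher on day 13 and 9 lower under rapamycin than on day 13, with *Fos* at a log2 fold change of 3.89 (SE 0.93, adjusted p = 0.0145) and -3.96 (SE 0.91, adjusted p = 0.00987). On day 4 and day 6, 2 of the 12 were lower than control, *Npas4* in both (log2 fold change -0.74 and -1.07, adjusted p = 0.0423 and 0.00166). With any 1 mouse left out the day 4 count was 0 to 1, and *Npas4* kept its day 4 call in 1 of 8 such fits. The part of neuronal activity in the *Atf3* values was not tested.

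*Nupr1*, the gene of a small chromatin-associated stress protein, split the mice of each late group. It lies on chromosome 7 (minus strand, 126623249 to 126630861). All mice of the control, day 4, day 6 and rapamycin groups had between 0.788 and 1.73 CPM. On day 8 mice A and C had 5.56 and 7.75 CPM while B and D had 1.68 and 1.48 CPM, and on day 13 mice A and B had 8.23 and 21.5 CPM while C and D had 1.36 and 1.42 CPM, inside the range of the controls. Day 13 gave a log2 fold change of 2.50 against control (SE 0.776, adjusted p = 0.0394) and 2.67 against day 6 (SE 0.787, adjusted p = 0.0438), and that of rapamycin against day 13 was -2.81 (SE 0.802, adjusted p = 0.0245). The day 13 range overlapped the other group in each of these comparisons. Without day 13 mouse B the value against control was 1.39 (adjusted p = 0.118), and leaving out any control mouse or day 13 mouse A also took the adjusted p above 0.05, to between 0.06704 and 0.09848. The call against day 6 was lost without any day 6 mouse and without day 13 mouse A or B, and that of rapamycin against day 13 without day 13 mouse B or rapamycin mouse A, B or D.

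*Cebpb* encodes C/EBPβ, a dimer partner of ATF4 and CHOP, and its log2 fold change on day 13 was the smallest among the 6 transcription regulators described so far. It lies on chromosome 2 (plus strand, 167688915 to 167690418), where 908 of its bases overlap the opposite gene *Tmem189*. Controls had 1.89 to 2.47 CPM, and day 8 mice A to D 3.99, 2.63, 4.295 and 1.88 CPM, which overlap. On day 13 the mice had 4.57, 8.12, 6.59 and 3.47 CPM, all above the controls, with a log2 fold change of 1.29 (SE 0.246, adjusted p = 0.00567). Rapamycin-treated mice, at 2.66 to 3.28 CPM, were below all day 13 mice (log2 fold change -0.98, SE 0.241, adjusted p = 0.0134) and also above all control mice, although the log2 fold change against control of 0.32 did not pass the test (SE 0.141, adjusted p = 0.252). Among all genes, 5.7% had every rapamycin-treated mouse above every control.

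Among the effectors, *Chac1*, which encodes an enzyme that breaks down glutathione, had the largest early change. It lies on chromosome 2 (plus strand, 119351229 to 119354381). Control mice A to D had 1.98, 1.75, 2.30 and 2.32 CPM and day 4 mice 2.70, 2.50, 2.34 and 2.42 CPM, which did not overlap, but the log2 fold change of 0.26 did not pass the test (SE 0.130, adjusted p = 0.323), and 5.96% of all genes had every day 4 mouse above every control. On day 6 the level was 6.86, 7.76, 9.42 and 5.14 CPM. This is a log2 fold change of 1.80 (SE 0.166, adjusted p = 3.13e-05), the largest of the 10 genes on that day. On day 8 it was 31.3, 18.8, 31.4 and 15.95 CPM and on day 13 31.0, 66.4, 22.5 and 25.2 CPM, so that the ranges of both days overlapped. The log2 fold change on day 13 was 4.09 against control (SE 0.344, adjusted p = 2.31e-04) and 2.29 against day 6 (SE 0.340, adjusted p = 0.00551). Under rapamycin the level was 1.87, 2.49, 1.66 and 1.22 CPM, which gave -4.305 against day 13 (SE 0.377, adjusted p = 1.92e-04) and -0.20 against control (SE 0.203, adjusted p = 0.663).

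*Trib3* encodes a pseudokinase that ATF4 and CHOP induce and that in turn binds and restrains ATF4 and AKT. It lies on chromosome 2 (minus strand, 152337422 to 152344032) and had the lowest level per kilobase of the 10 genes in controls (0.112 CPM per kb), resting on 8 to 20 reads per control mouse. Controls had 0.202, 0.334, 0.267 and 0.153 CPM. On day 6 mice A, B and C had 0.824, 0.612 and 0.817 CPM, but mouse D had 0.225 CPM, within the controls. On day 8 the level was 4.88, 1.42, 6.11 and 1.46 CPM and on day 13 5.86, 13.2, 2.24 and 5.43 CPM, all above every mouse of the control, day 4, day 6 and rapamycin groups. The rise on day 6 only just passed the test (log2 fold change 1.34, SE 0.393, adjusted p = 0.0451), and without control mouse A, C or D, or day 6 mouse A, B or C, the adjusted p was 0.07753 to 0.1412, and in a fit of all 24 mice 0.3173. On day 13 the log2 fold change was 4.76 against control (SE 0.536, adjusted p = 6.61e-04) and 3.42 against day 6 (SE 0.541, adjusted p = 0.00636). Rapamycin-treated mice had 0.284 to 0.416 CPM, a log2 fold change of -4.38 against day 13 (SE 0.507, adjusted p = 5.43e-04).

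Sestrin 2 and DDIT4 (REDD1) are both known as stress-induced inhibitors of mTOR complex 1, and the levels of their genes are set side by side here. *Sesn2* (chromosome 4, minus strand, 132492032 to 132510501) had a higher mean at each successive time point. It overlaps *Gm12981*, annotated on the same strand, which had a mean of 36.9 counts per mouse against 1731.6 for *Sesn2*. Its level was 10.5 to 11.8 CPM in controls, 13.2 to 15.2 CPM on day 4, 19.0 to 23.9 CPM on day 6, 34.9 to 51.0 CPM on day 8 and 51.6 to 94.1 CPM on day 13, and no range overlapped that of the preceding time point. The last step was narrow, with the highest day 8 mouse at 51.0 and the lowest day 13 mouse at 51.6 CPM. Day 8 entered the choice of the genes, and the share of all genes with such an order was not counted. *Sesn2* had a log2 fold change against control of 0.37 on day 4 (SE 0.0712, adjusted p = 0.0154, under the limit on fold change), 0.97 on day 6 (SE 0.0733, adjusted p = 1.07e-05) and 2.52 on day 13 (SE 0.178, adjusted p = 1.25e-04). Under rapamycin it was 13.5, 12.1, 11.8 and 10.1 CPM, a log2 fold change of -2.43 against day 13 (SE 0.189, adjusted p = 1.35e-04) and 0.11 against control (SE 0.0926, adjusted p = 0.606).

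*Ddit4* (chromosome 10, minus strand, 59949669 to 59951834) had log2 fold changes against control of 0.48 to 0.88 over the 4 time points. It was 19.3, 26.9, 27.3 and 23.9 CPM in control mice A to D and 27.8, 34.4, 40.4 and 32.9 CPM on day 4, with no overlap. On day 6 it was 34.5 to 39.0 CPM, on day 8 32.9 to 41.0 CPM and on day 13 33.7, 46.3, 46.3 and 55.3 CPM. *Ddit4* had a log2 fold change against control of 0.48 on day 4 (SE 0.117, adjusted p = 0.0417, under the limit on fold change), 0.55 on day 6 (SE 0.0895, adjusted p = 0.00185) and 0.88 on day 13 (SE 0.158, adjusted p = 0.00433). The day 6 call was lost in a fit of all 24 mice (adjusted p = 0.05453) and without control mouse A (0.46, under the limit on fold change). The other 9 genes were called lower under rapamycin than on day 13, whereas the treated mice had 36.7, 34.7, 39.7 and 25.2 CPM of *Ddit4*, a log2 fold change of -0.41 against day 13 (SE 0.170, adjusted p = 0.0941) and 0.48 against control (SE 0.131, adjusted p = 0.0626). Neither passed the test. Rapamycin mouse D was the one that overlapped the controls, and without it the value against control was 0.60 (adjusted p = 0.0104). Over all 8 fits with a mouse left out the value was 0.38 to 0.60 and the adjusted p 0.0104 to 0.151, and *Ddit4* stayed uncalled in 7.

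Genes induced by glucocorticoids, the stress hormones of the adrenal cortex, were higher in some of the groups in which *Ddit4* was higher. *Ddit4* is itself known to be induced by glucocorticoids. The summed level of 12 such genes was 423 to 485 CPM in controls, 585 to 698 CPM on day 4, 465 to 550 CPM on day 6, 452 to 513 CPM on day 8, 693 to 982 CPM on day 13 and 706 to 802 CPM under rapamycin. None of the 12 was at 0. On day 4, 2 of the 12 were called higher than control, *Sgk1* (log2 fold change 0.81, SE 0.12, adjusted p = 0.00357) and *Sult1a1* (0.70, SE 0.15, adjusted p = 0.0250), which kept its call in 3 of 8 fits with a mouse left out. Under rapamycin 8 were, led by *Cdkn1a* (1.70, SE 0.17, adjusted p = 3.81e-04), *Sgk1* (1.20, SE 0.12, adjusted p = 3.14e-04), *Sult1a1* (0.98, SE 0.13, adjusted p = 0.00162) and *Pdk4* (0.84, SE 0.11, adjusted p = 0.00148). On day 13, 7 of the 12 were called higher than control, with *Cdkn1a* the largest (3.70, SE 0.67, adjusted p = 0.00460). On day 6 none passed the test, although *Ddit4* was above the controls in all 4 mice. The part of these hormones in the *Ddit4* values was not tested. Rapamycin-treated mice differ from controls in genotype, drug and day of collection at once.

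**Figure D2:**
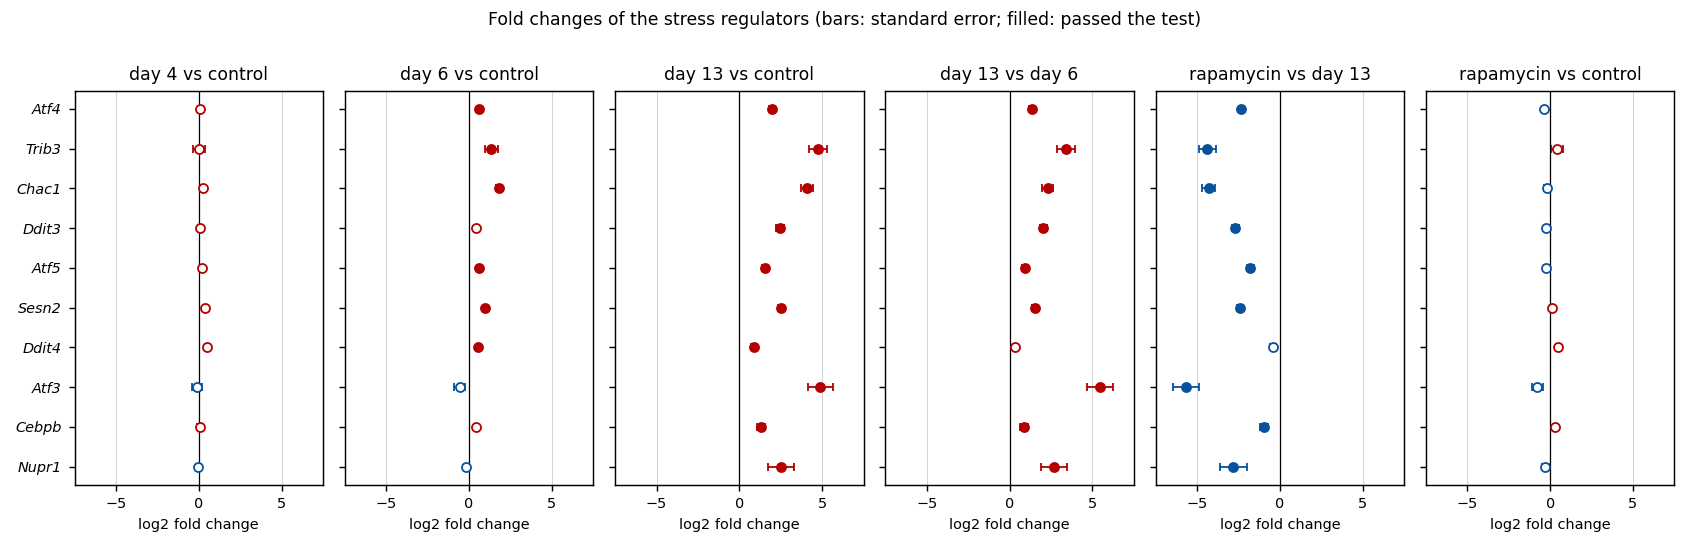
Log2 fold change of each gene (x axis) in the 6 tested comparisons, with the standard error as a bar, filled where the gene passed the test. All 10 points are filled on day 13 against control, 6 on day 6, none on day 4 or under rapamycin against control, and *Ddit4* is open where rapamycin or day 6 is compared with day 13.

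Day 8 is described without a test, since it entered the choice of the genes. The log2 fold change against control was 3.81 for *Trib3*, 3.53 for *Chac1*, 2.00 for *Sesn2*, 1.77 for *Ddit3*, 1.60 for *Atf5*, 1.57 for *Atf4*, 1.55 for *Atf3*, 1.51 for *Nupr1*, 0.57 for *Ddit4* and 0.46 for *Cebpb*. In 7 of the 10 genes all day 8 mice lay above all controls, and the ranges of *Atf3*, *Cebpb* and *Nupr1* overlapped. Over all genes tested in this contrast, 2.15% were called higher and 12.3% had every day 8 mouse above every control, from which nothing is read here for genes chosen in part by their day 8 rise. Controls and day 8 mice shared 2 number series, with 2 mice of each group in each. Within these the log2 ratio of the means was 1.61 and 1.56 for *Atf4*, 3.56 and 4.17 for *Trib3*, 3.75 and 3.36 for *Chac1*, 1.81 and 1.76 for *Ddit3*, 0.79 and 0.38 for *Ddit4* and 0.75 and 1.99 for *Atf3*.

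The mice of day 8 and day 13 differed widely in these genes. On day 8, mouse C had the highest level of 7 of the 10 and mouse A that of the other 3, while mouse D had the lowest of 7. The summed level of 32 other ATF4 target genes in day 8 mice A to D was 3151, 2516, 3487 and 2417 CPM, against 1447 to 1500 CPM in controls, so that C was highest and D lowest here too. That of 17 genes of the unfolded protein response in the endoplasmic reticulum, mostly folding genes, was 2167, 1837, 2279 and 1832 CPM, against 1736 to 1936 CPM in controls. Markers of other cells had the same extremes in part. The microglia sum was 297.5, 257.2, 306.9 and 251.2 CPM, that of inhibitory neurons 389.8, 358.6, 395.8 and 334.6 CPM and that of leukocytes 10.12, 7.759, 12.27 and 8.34 CPM. The leukocyte sum rests mostly on 1 gene, *Ptprc* (mean of 7.70 of 9.13 CPM in controls). That of excitatory neurons was 4798, 5270, 3803 and 4484 CPM, lowest in mouse C. The part of these cell types in the spread of day 8 was not tested. Total counts were 58164907, 59124484, 53564370 and 54511694 in these mice. On day 13, mouse B had the highest level of 8 of the 10 genes, and it was also the deepest library. Mouse C had the lowest level of 6.

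**Figure D3:**
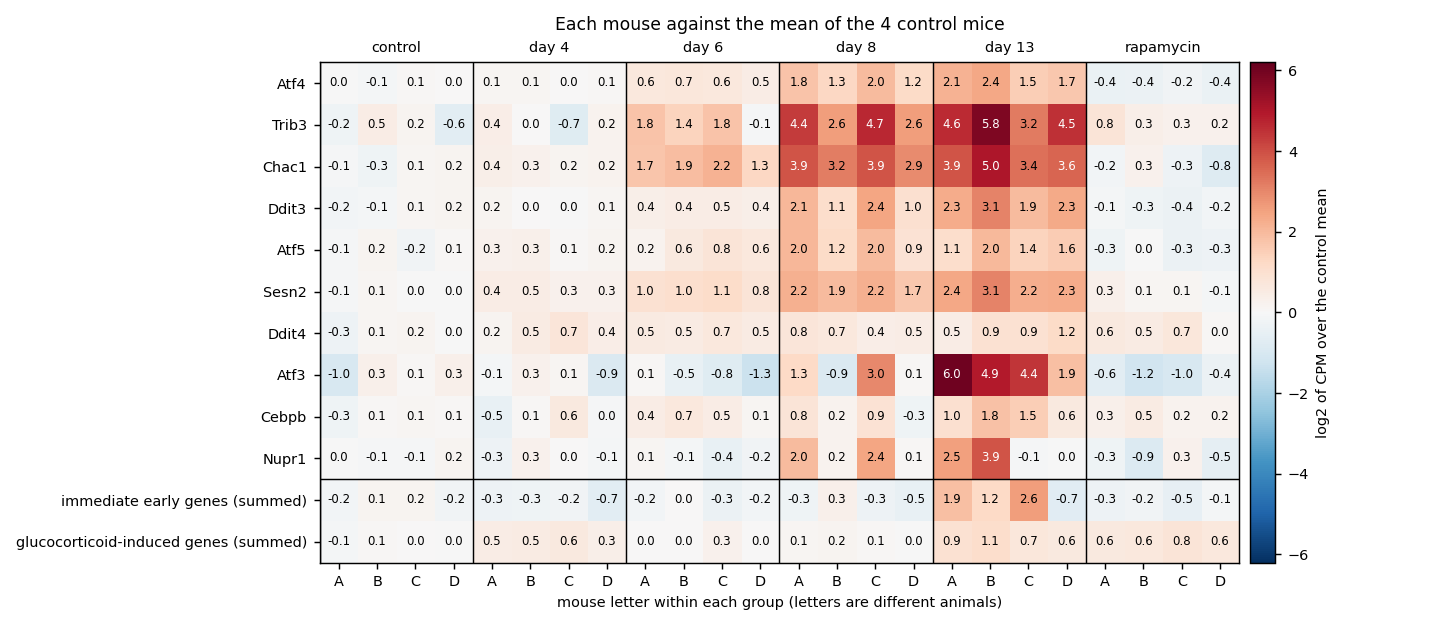
Log2 of the level of each gene in each mouse over the mean of the 4 control mice (colour and number), with the summed levels of 12 immediate early genes and 12 glucocorticoid-induced genes below. Day 8 mouse C is the darkest of its group for 7 of the 10 genes, and day 13 mouse D is low in the row of immediate early genes while *Atf4*, *Chac1* and *Ddit3* stay high in it.

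Over all 24 mice, the log2 levels of *Atf4*, *Trib3*, *Chac1*, *Ddit3*, *Atf5* and *Sesn2* were correlated with each other at Pearson's r between 0.90 and 0.99. For *Ddit4* the coefficients with the other 9 genes were 0.26 to 0.66. The mice share their groups and the normalization, so these coefficients describe the common time course. Among 18255 other genes with a mean of at least 1 CPM, those with the pattern most like *Atf4* over the 24 mice were *Aldh18a1*, *Yars* and *Iars* (r of 0.99 each). Those most like *Trib3* were *Xpot*, *Lars* and *Immt* (0.98 each), those most like *Chac1* were *Slc7a1*, *Asns* and *Gars* (0.99 each), and those most like *Ddit3* were *Aars*, *Hspa9* and *Sars* (0.99 each). Of these 12 genes, *Yars*, *Iars*, *Lars*, *Gars*, *Aars* and *Sars* encode aminoacyl-tRNA synthetases, *Xpot* the export factor for tRNA, *Asns* asparagine synthetase, *Aldh18a1* the first enzyme of proline synthesis and *Slc7a1* a transporter of cationic amino acids. *Immt* and *Hspa9* have none of these roles.

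The promoters of these genes were searched for the composite C/EBP-ATF element, through which ATF4 and its partners are known to act. RefSeq windows of GRCm38 reaching from 250 bases before to 50 bases after the start were found for all 10 genes (11 windows). The search for TGATGNAAN on both strands matched 4 of these 11 windows, 1 each of *Chac1*, *Trib3*, *Atf3* and *Nupr1*, and 3.9% of 32544 windows of all genes. The cAMP response element TGACGTCA was in none of the 11 and in 1.8% of all windows, the AP-1 site TGAGTCA in 1 (*Ddit3*) and in 5.19%, and CCAAT in 7 and in 37.4%. No match of the C/EBP-ATF element overlapped a match of another motif. The 4 stretches that hold it are shown because their genes had unlike time courses, written 5′ to 3′ on the strand of the gene, with the match in capitals (the reverse complement of the letters above).
Chac1: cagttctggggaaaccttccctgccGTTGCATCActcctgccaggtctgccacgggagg
Atf3: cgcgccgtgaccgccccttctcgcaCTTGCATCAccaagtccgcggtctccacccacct
Nupr1: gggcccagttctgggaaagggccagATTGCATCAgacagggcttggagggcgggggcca
Trib3: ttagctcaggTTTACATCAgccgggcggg
The *Chac1* stretch is chr2:119351023-119351081 (plus strand), with its match 194 to 186 bases upstream of the start. The *Atf3* stretch is chr1:191183411-191183469 and the *Nupr1* stretch chr7:126625548-126625606 (both minus strand), with the matches 111 to 103 bases upstream of their RefSeq starts. The *Trib3* stretch is chr2:152344029-152344057 (minus strand), and its match lies 13 to 21 bases downstream of the RefSeq start. *Chac1* was called on day 6 with the largest fold change, *Trib3* rose in 3 of 4 mice, and *Atf3* and *Nupr1* had no higher level on that day, so these 4 genes with the element in the window did not share a time course. *Atf4*, *Atf5*, *Ddit3*, *Sesn2*, *Ddit4* and *Cebpb* had no match within these 300 bases, which leaves the rest of each gene unsearched.

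Other genes of the pathway were grouped in lists by what they are known for. Of all tested genes, 0.647% were called higher on day 6 and 8.4% on day 13. Under rapamycin 11.2% were called lower than on day 13. These shares stand beside the list counts that follow. Of 32 further ATF4 targets, 1 of 30 tested was called higher on day 4 (*Stc2*, log2 fold change 0.64, SE 0.14, adjusted p = 0.0260, a call kept in 2 of 8 fits with a mouse left out), 12 of 30 on day 6, 26 of 31 on day 13, and none under rapamycin. None was lower than control. *Mthfd2*, which encodes an enzyme of mitochondrial folate metabolism, had 4.75 ± 0.379 CPM (SD, n = 4) in controls, 10.8 ± 1.53 CPM on day 6 and 39.1 ± 11.9 CPM on day 13, with log2 fold changes of 1.18 (SE 0.10, adjusted p = 2.32e-05) and 3.02 (SE 0.19, adjusted p = 8.30e-05). *Slc7a3*, a transporter of cationic amino acids, rose by 1.16 on day 6 (SE 0.22, adjusted p = 0.00464) and 4.35 on day 13 (SE 0.26, adjusted p = 6.56e-05). *Eif4ebp1*, which encodes the mTOR-regulated translation repressor 4E-BP1, rose by 1.06 (SE 0.20, adjusted p = 0.00450) and 3.34 (SE 0.44, adjusted p = 0.00114). The median log2 fold change of the list was 0.32 on day 6 and 1.46 on day 13. Under rapamycin 25 of 30 were lower than on day 13, with a median of -1.51.

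Upstream of ATF4, the genes of the eIF2 kinases, eIF2 phosphatase and exchange factor moved less. None of 14 was called on day 4, on day 6 or under rapamycin against control, and 6 were called higher on day 13 (median log2 fold change 0.46). The largest was *Ppp1r15a* (GADD34), the stress-induced phosphatase subunit that restores translation, with 7.07 ± 0.435 CPM in controls and 22.7 ± 10.1 CPM on day 13 (log2 fold change 1.66, SE 0.27, adjusted p = 0.00283). *Ppp1r15b*, the constitutive subunit, rose by 0.69 (SE 0.12, adjusted p = 0.00403) and *Eif2s1*, the eIF2 subunit that is phosphorylated, by 0.74 (SE 0.11, adjusted p = 0.00220). These are RNA levels, and phosphorylation of eIF2 was not measured in these data.

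A list for the other branches of the unfolded protein response held mostly folding genes, with the regulators *Atf6*, *Ern1* and *Xbp1* among them. Its summed level was 1736 to 1936 CPM in controls, 2027 to 2415 CPM on day 13 and 1532 to 1584 CPM under rapamycin, with no overlap between these groups. Of 17, none was called on day 4 or day 6, and 2 were called higher on day 13, beside 8.4% of all tested genes, *Sdf2l1* (log2 fold change 0.85, SE 0.16, adjusted p = 0.00504) and *Dnajb11* (0.62, SE 0.08, adjusted p = 0.00116). Under rapamycin 7 were lower than on day 13, beside 11.2% of all tested genes. Among them were *Sdf2l1* (-1.40, SE 0.18, adjusted p = 7.66e-04) and *Hspa5*, the main chaperone of the endoplasmic reticulum (-0.87, SE 0.15, adjusted p = 0.00302). *Sdf2l1* was lower than control too (-0.54, SE 0.13, adjusted p = 0.0405), a call kept in 2 of 8 fits with a mouse left out. Of 8 genes known as CHOP targets or of cell death, 1 was called higher on day 6 (*Bbc3*, 0.52, SE 0.13, adjusted p = 0.0220), beside 0.647% of all tested genes. On day 13, 1 was called higher (*Pmaip1*, 1.30, SE 0.42, adjusted p = 0.0476), beside 8.4% of all tested genes. Under rapamycin against control 1 was called higher (*Pmaip1*, 0.82, SE 0.14, adjusted p = 0.00680). With a mouse left out, the calls of *Bbc3* on day 6 and *Pmaip1* on day 13 were kept in 4 and 2 of 8 fits. *Ddit3* itself was called higher on day 13 and not on day 6. None of the 8 was called lower under rapamycin than on day 13. The list does not hold *Trib3*, which ATF4 and CHOP are known to induce and which rose on day 13 (4.76, SE 0.536). It also mixes CHOP targets with other cell death genes, so its counts do not measure the response to CHOP.

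Other leucine zipper factors that can pair with these regulators rose in part. On day 6, *Jun* (log2 fold change 0.79, SE 0.06, adjusted p = 1.07e-05), *Jund* (0.55, SE 0.13, adjusted p = 0.0167) and *Cebpd* (0.53, SE 0.09, adjusted p = 0.00317) were called among 23 tested. On day 13, beside 8.4% of all tested genes called higher, there were 8 of 23, led by *Junb* (2.16, SE 0.50, adjusted p = 0.0124) and *Nfil3* (1.71, SE 0.30, adjusted p = 0.00378). Under rapamycin 8 were lower than on day 13 and *Hlf* was higher (1.40, SE 0.42, adjusted p = 0.0300), a call kept in 3 of 8 fits with a mouse left out, as that of *Jund* and that of *Cebpd* on day 6 were in 5 of 8. Among 10 paralogs of the regulators, *Trib1* rose by 1.97 on day 13 (SE 0.45, adjusted p = 0.0118) and *Trib2* by 1.43 (SE 0.37, adjusted p = 0.0189), and *Cebpg*, a dimer partner of ATF4, by 0.87 (SE 0.14, adjusted p = 0.00279). Of 10 p53 targets, none was called on day 6 and 2 on day 13, beside 8.4% of all tested genes called higher. They were *Cdkn1a*, which the glucocorticoid list also holds (3.70, SE 0.67, adjusted p = 0.00460), and *Bax* (0.72, SE 0.09, adjusted p = 0.00110). *Cdkn1a* was called higher under rapamycin than in controls too (1.70, SE 0.17, adjusted p = 3.81e-04).

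**Figure D4:**
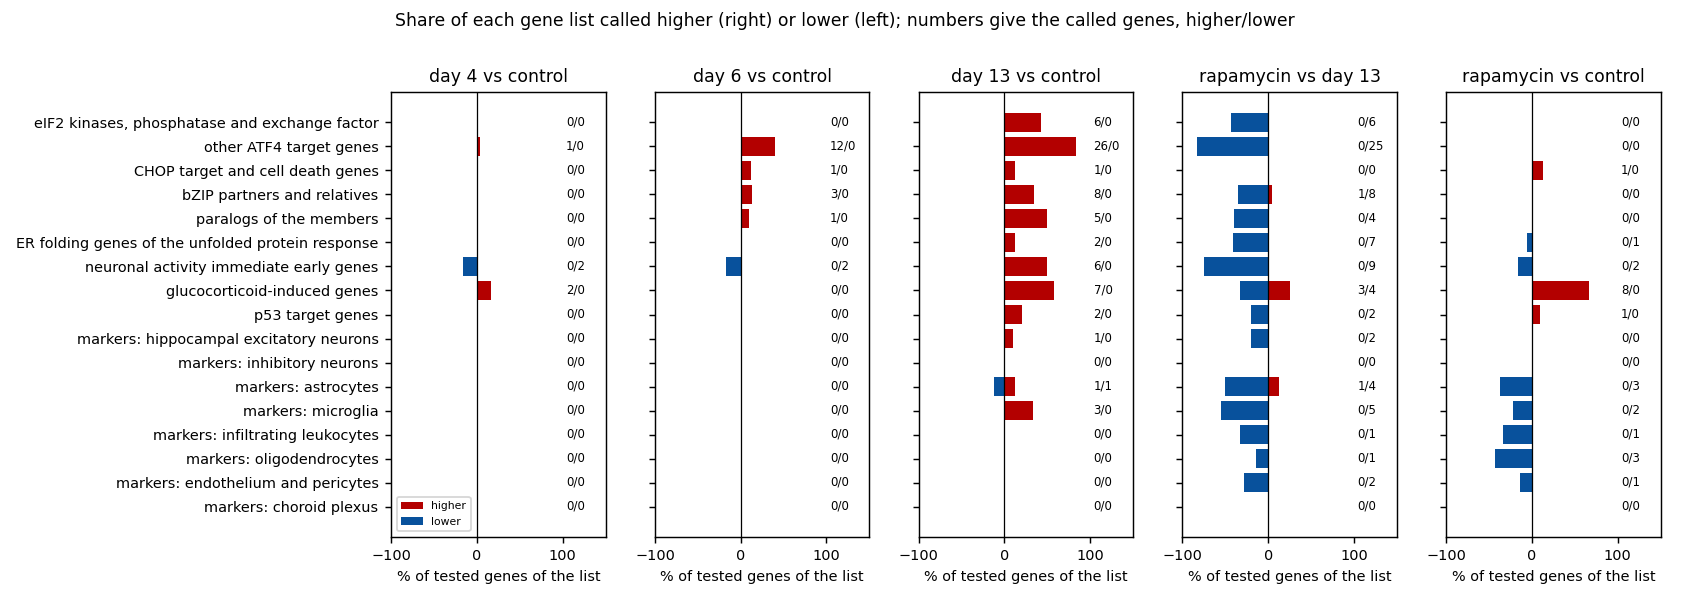
Percent of the tested genes of each list called higher (right) or lower (left) in 5 comparisons, with the number of called genes beside each bar. ATF4 targets have the longest bars on day 6 (12 of 30) and day 13 (26 of 31), and glucocorticoid-induced genes have the longest bar under rapamycin against control (8 of 12).

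Markers of other cell types were compared in the same fits. On day 13, 3 of 9 microglia markers were called higher, beside 8.4% of all tested genes. Their summed level was 299 to 432 CPM against 273 to 322 CPM in controls, with the highest value in mouse B. None of the 9 was at 0. Under rapamycin the sum was 205 to 232 CPM, below all controls, with 2 of the 9 called lower than control and 5 lower than on day 13. The astrocyte sum under rapamycin, at 5711 to 5855 CPM, overlapped the controls, with 3 of 8 markers called lower than control, and 4 lower and 1 higher than on day 13. The endothelium sum, at 261.7 to 280.7 CPM, was below all controls, and of 7 oligodendrocyte markers 3 were lower than control. Of 9 leukocyte markers the sum was 8.31 to 10.1 CPM in controls and 8.93 to 16.8 CPM on day 13. Only 3 of the 9 had enough counts to be tested on day 13, and *Ptprc* alone averaged 7.70 CPM in controls. Of the markers of inhibitory neurons, oligodendrocytes, endothelium and choroid plexus, none was called on day 13, and 1 of 10 markers of excitatory neurons and 2 of 8 of astrocytes (1 in each direction) were. On day 6 no marker of any of these lists passed both limits, but several sums lay below all controls: microglia at 242.9 to 256.9 CPM, astrocytes at 5299 to 5653 CPM against 5785 to 6342 CPM, and endothelium at 287.5 to 295.9 CPM against 308.0 to 338.4 CPM. The astrocyte genes *S100b* and *Gja1* had day 6 log2 fold changes of -0.45 (SE 0.0551, adjusted p = 2.79e-04) and -0.34 (SE 0.0393, adjusted p = 1.76e-04), under the limit on fold change. The part of other cell types in the day 6, day 13 and rapamycin values was not tested.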

How the data were processed

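Hippocampal RNA of 24 mice was sequenced as stranded, rRNA-depleted total RNA. Per the labels and the methods of the study, the authors trimmed reads with CutAdapt 1.16.5, aligned them with STAR 2.7.2b to GRCm38 and counted them per GENCODE M24 gene with featureCounts 1.6.4. They deposited these read counts without normalization. The strand setting and the handling of reads with several alignments are not given in the sources used here, so overlapping genes are marked as uncertain. Names and positions come from GENCODE M21, which held 55144 of the 55385 identifiers. For *Ddit3* the identifier with the higher count was used.

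Each comparison was fitted on its 8 mice with the quasi-likelihood test of edgeR 4.0.16 (R 4.3.3), after filterByExpr and TMM normalization, with Benjamini-Hochberg adjustment over all genes that passed the filter. Calls needed both an adjusted p below 0.05 and a log2 fold change beyond 0.5 in either direction, limits that the study set for its DESeq2 tests. Day 8 against control was fitted alike and printed without a test. Levels are CPM with TMM factors. The mice of a group are different animals. A p-value covers the spread between mice, not a difference between number series.

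The 10 genes, the lists and the tests were chosen with earlier results of these data known. All 10 genes and *Tsc1* are named, and from each other list genes among the 4 with the largest called changes per comparison, or the 2 largest where none was called. Genes of like pattern are the 3 with the highest Pearson's r of log2 CPM. Promoter windows are RefSeq's. The fits were tested on simulated counts. The mouse letters (A to D) are shared by all groups but name different animals, and the check of whether they pair mice is given with the alternatives, which were DESeq2 1.42.0, its size factors, a fit of all 24 mice, no or another filter on low counts, the mouse letter as a replicate block, a correction for GC content, no minimum of fold change and each mouse left out in turn. Applying them to the other lists was added after the data were seen. Precision is limited by 4 mice per group and, for *Trib3* and *Atf3*, by low counts.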

Additional observations from a re-analysis of the deposited data

Results flagged for a closer look

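Among the 60 sets of 4 mice (10 genes in 6 groups), 4 held a mouse far from the other 3 by Dixon's ratio, where chance gives about 1 in 20. *Trib3* was 0.416 CPM in rapamycin mouse A, the shallowest library, and 0.284 to 0.304 CPM in the others, a level that rests on 12 to 17 reads per mouse. *Atf5* was 5.00 CPM in rapamycin mouse B and 4.02 to 4.16 CPM in the others. *Sesn2* was 94.1 CPM in day 13 mouse B, the deepest library, and 51.6 to 57.9 CPM in the others. *Cebpb* was 1.89 CPM in control mouse A and 2.39 to 2.47 CPM in the others.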

How the results depend on the processing

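Of the 893 values of the 10 genes under another setting, 851 kept their side of the threshold, 36 lost the call and 6 gained it. None of the called values changed sign, and 13 uncalled day 4 values of *Atf3*, *Cebpb*, *Nupr1* and *Trib3* did. The number of genes called on day 4 was 2 without a minimum of fold change (*Sesn2* and *Ddit4*) in place of 0, and 0 to 1 with a mouse left out. On day 6 it was 3 in place of 6 when all 24 mice were fitted together, which lost *Trib3*, *Atf5* and *Ddit4* (adjusted p = 0.317, 0.192 and 0.0545), and 4 to 7 with a mouse left out. Under rapamycin against control it was 1 with the correction for GC content (*Ddit4*), 1 without a minimum of fold change (*Atf4*) and 0 to 1 with a mouse left out. With a mouse left out it was 9 to 10 on day 13, 8 to 10 for rapamycin against day 13 and 7 to 9 for day 13 against day 6, where *Nupr1* and *Cebpb* lost the call. Within the 2 number series that controls and day 8 mice share, *Ddit4* on day 8 was 0.79 and 0.38 in place of 0.57. Mice of the same letter did not deviate together (r between -0.12 and 0.09), so the letters do not pair mice. With the letter as a replicate block the counts were 0 on day 4, 6 on day 6, 9 on day 13, 0 under rapamycin against control, 8 for rapamycin against day 13 and 8 for day 13 against day 6, and *Nupr1* was the gene lost in each of these (adjusted p = 0.143, 0.109 and 0.113).

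Over all genes, the count of calls was 172 on day 4 (29 to 1054 under the alternatives), 332 on day 6 (84 to 2519), 4101 on day 13 (3546 to 6696), 352 under rapamycin against control (162 to 892), 5123 for rapamycin against day 13 (4531 to 7474) and 2639 for day 13 against day 6 (1569 to 4306, and 999 to 3875 with a mouse left out). DESeq2 gave no adjusted p to 7 of the values of *Trib3*, *Atf3* and *Nupr1*, the rise of *Trib3* on day 6 among them. Of 2158 values of genes named from other lists, 272 lost the call and none changed sign. The ATF4 targets called on day 6 numbered 8 to 12 and those on day 13 23 to 28, while the immediate early genes called on day 13 numbered 3 to 12 in place of 6. The causes of these changes were not tested.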
